A study of Sus scrofa with 8 samples.

Results

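Lymphoma clones grown from a lymph node tumour were compared with lymphoma clones grown from the spleen in pig (Sus scrofa). The comparison took 6 of the 8 libraries of the study, all clones that the labels assign to either organ, and left out the CD21+ and CD3+ splenocyte controls. The 4 lymph node clones came from lymphoma of the subileac lymph node and the 2 spleen clones from lymphoma of the spleen. All 6 had the same history after that: tumour cells were dissociated by hand, cultured in complete RPMI 1640 medium, and taken through 4 rounds of limiting dilution, so each library is 1 cultured clone and none is fresh tissue. No genotype, treatment or age is given for either group. The number of pigs behind the 6 clones is not stated, so every p-value measures only the spread between these clones. Total RNA from equal cell numbers was sequenced with paired reads. Levels are in CPM (counts per 1e+06 counts of the library), scaled by TMM, edgeR's correction for library composition.

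A lymphoma that starts from B cells can appear in several lymphoid organs at once, because B lymphocytes and many of their malignant counterparts travel between blood, lymph nodes and spleen. Chemokine receptors such as CXCR5 and CCR7, integrins such as LFA-1, and the sphingosine phosphate receptor S1PR1 steer this traffic. Lymph node and spleen surround a B cell with different stroma, but all clones here grew in the same medium.

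The libraries were of similar depth and breadth. They held 16415644 to 27253505 counts, with 14374 to 14715 of 22366 features detected, and TMM factors of 0.967 to 1.01. Mitochondrially encoded transcripts made up 6.78 ± 0.437% of counts in the lymph node clones (SD, n = 4) and 7.65 ± 0.0182% in the spleen clones (SD, n = 2). The groups did not overlap, and the exact permutation test gave p = 0.133. This p is two-sided as the doubled smaller tail, for which 0.133 is the smallest that 15 assignments of the clones allow. The 10 most abundant features took 8.59 ± 0.660% and 9.51 ± 0.0148%, again without overlap and with an exact permutation p = 0.133 by the same doubled tail. Ribosomal protein genes took 8.05 ± 0.342% and 7.97 ± 0.191% (exact permutation p = 0.933). No 2 clones had counts that agreed within sampling noise, the closest pair having a chi-square of 3.97 per feature. That measure covers counting noise only, so it cannot show that the clones are independent of each other. All 6 were counted separately, as the labels give them.

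Every clone carried the RNA of a B cell. PAX5 and EBF1, the factors that commit a progenitor to the B lineage, stood at 1732 to 2305 CPM and at 333 to 506 CPM over the 6 clones. The surface protein MS4A1 stood at 374 to 519 CPM and the receptor chain CD79A at 188 to 243 CPM. CD3E, a defining surface chain of T cells, did not exceed 0.61 CPM in any clone. CD14, a monocyte receptor, had 7 counts over all 6 clones, and COL1A1, a collagen chain of fibroblasts, had 9. PECAM1, an adhesion molecule of endothelium that blood cells also carry, stood higher, at 7.32 to 16.4 CPM. Some other T cell and myeloid markers were expressed too, as SKAP1 was, at 75.3 to 84.5 CPM, and ITGAM, at 34.6 to 71.5 CPM. The label of a B cell lymphoma clone thus held in all 6 libraries and did not separate the organs.

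No gene passed the test between lymph node clones and spleen clones. Of 12580 features that passed the filter on low counts, 0 passed edgeR's quasi-likelihood test at a Benjamini-Hochberg adjusted p of 0.05 (0% called), and the smallest adjusted p was 0.942. At an unadjusted p under 0.05 there were 605 features, of which 358 were higher in the lymph node clones (2.85% of those tested) and 247 higher in the spleen clones (1.96%). DESeq2 on the same features passed 20, of which 11 were higher in the lymph node clones, and limma-voom passed 0. Without spleen clone 1 the count at an unadjusted p under 0.05 was 341, without spleen clone 2 it was 250, and without lymph node clone 4 it was 1843. The groups did not overlap at all for 976 features that were higher in every lymph node clone (7.76%) and 964 that were higher in both spleen clones (7.66%). No feature reached 1 CPM in every clone of 1 organ while having 0 counts in the other, and lowering that level to 0.5 CPM found none either.

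The size of what was missed can be bounded for most features, each taken by itself. The median standard error of a log2 fold change was 0.12, and the median 95% interval reached 0.29 to either side. For 10371 features (82.4%) the whole interval lay within a 2-fold change in either direction. Only 235 features had a fitted change of 2-fold or more, 145 of them higher in the lymph node clones. The median log2 fold change of all features was 0.0034, with 51.3% above 0.

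Of the 6 clones, 5 had their nearest clone in the same organ, and the nearest to lymph node clone 4 was a spleen clone. The difference between a pair of clones was measured as the root mean square difference of log2(CPM + 1) over the tested features. Lymph node clones 2 and 3 were the closest pair of all 15, at 0.154, with 2 features differing 2-fold or more. The spleen clones came next, at 0.226 with 39 such features. Lymph node clones 2 and 3 stood nearly as close to the spleen clones, at 0.235 to 0.255, as the spleen clones stood to each other. Lymph node clone 1 lay 0.250 and 0.276 from lymph node clones 2 and 3, and 0.332 and 0.362 from the spleen clones.

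Lymph node clone 4 stood apart from every other clone. It lay at 0.449 to 0.484 from the other lymph node clones, with 515 to 596 features differing 2-fold or more. Its nearest clone was spleen clone 2, at 0.389 with 381 such features. As a mean over pairs, lymph node clones differed more from each other (0.344, 6 pairs) than from the spleen clones (0.311, 8 pairs). That order rested on lymph node clone 4: without it the means were 0.227 within the lymph node group (3 pairs) and 0.277 between the organs (6 pairs). Pairs share clones and features, so these means are a description. All pairs were highly alike on rank, with Spearman correlations across features of 0.980 to 0.998, where features are not independent replicates. The first principal component, 53.3% of the variance, set lymph node clone 4 against the rest, and the second, 24.5%, ran from lymph node clone 1 to the spleen clones. Without lymph node clone 4 the biological coefficient of variation in the fit dropped from 0.157 to 0.0857 and 1 feature passed edgeR's test, higher in the lymph node clones.

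**Figure D1:**
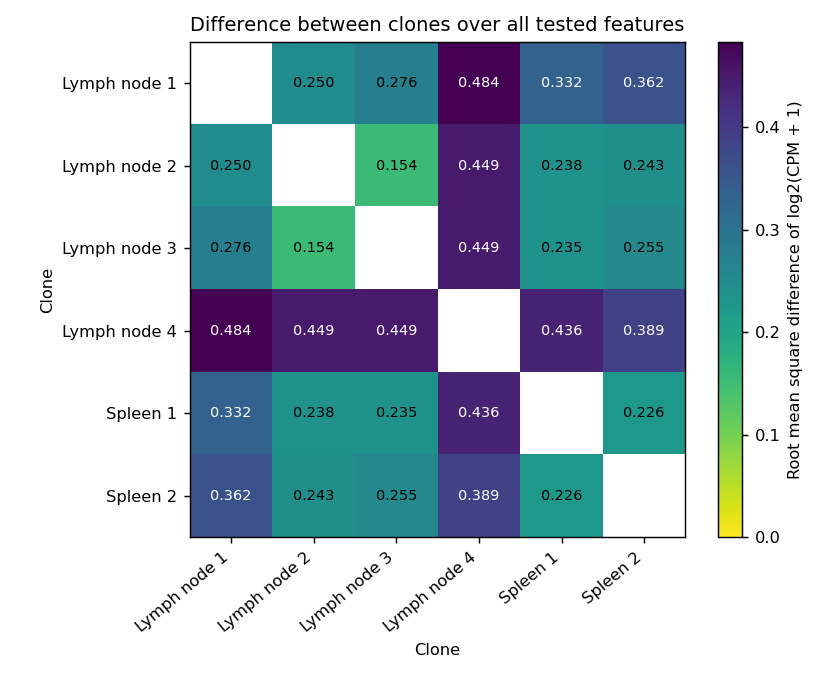
Root mean square difference of log2(CPM + 1) between each pair of the 6 clones over 12580 features, with darker cells farther apart. Lymph node clones 2 and 3 are closest at 0.154, and the row of lymph node clone 4 holds values from 0.389 to 0.484.

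Since no gene passed edgeR's test, the 6 genes with the smallest unadjusted p in each direction are described, all with adjusted p = 0.942. DESeq2 passed all 12 of them, with adjusted p from 5.16e-06 for FSCN1 to 0.0354 for MMP11. By construction these are the extremes of 12580 features, and their values are given to show what the widest separation between the organs looked like.

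Among the genes higher in the lymph node clones, ZFP57 had the smallest p. It encodes a zinc finger protein that protects DNA methylation at imprinted genes, and lies on chromosome 7 at 22607420 to 22612064 (Sscrofa11.1, as are all positions here). Its level was 5.98, 3.67, 3.24 and 4.48 CPM in lymph node clones 1 to 4 and 0.924 and 1.11 CPM in the spleen clones, a log2 fold change of 2.08 ± 0.31 (SE, unadjusted p = 0.000396). The lowest lymph node clone thus stood above the higher spleen clone, at a low level in all. AHNAK, a giant scaffold protein on chromosome 2 at 9186984 to 9216450, stood at 184, 130, 123 and 138 CPM against 73.7 and 48.7 CPM, a log2 fold change of 1.23 ± 0.21 (unadjusted p = 0.000870). ITGAL, the alpha chain of the integrin LFA-1 that holds lymphocytes to ICAM proteins, stood at 10.5, 8.21, 7.65 and 8.77 CPM against 4.99 and 4.14 CPM, a log2 fold change of 0.94 ± 0.18 (unadjusted p = 0.00161). It lies on chromosome 3 at 17817785 to 17858057.

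The other genes of that direction differed less or lay on chromosome 13, which is described below. TRIB2, a pseudokinase that can transform blood cells in mice, stood at 440, 372, 371 and 441 CPM against 278 and 277 CPM, a log2 fold change of 0.55 ± 0.10 (unadjusted p = 0.000918). The spleen clones hardly differed from each other, and every lymph node clone stood above them. The gene lies on chromosome 3 at 124170677 to 124196253. APP, the amyloid precursor protein, stood at 77.9, 51.6, 38.6 and 44.9 CPM against 18.3 and 23.0 CPM, a log2 fold change of 1.36 ± 0.28 (unadjusted p = 0.00216). DZIP3, a ubiquitin ligase, stood at 56.2, 51.1, 44.3 and 46.7 CPM against 34.7 and 32.5 CPM, a log2 fold change of 0.56 ± 0.11 (unadjusted p = 0.00121). Both lie on chromosome 13, at 189434854 to 189716120 and 150796658 to 150934045, and lymph node clone 1 was the highest for both. Lymph node clone 4 stood above clone 3 and above both spleen clones for both genes. Over chromosome 13 as a whole its median level was 1.01-fold that of the spleen clones. APP overlaps the annotated gene LOC110256540, and with no strandedness stated, reads in the overlap cannot be assigned to one of them.

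FSCN1 led the genes higher in the spleen clones. This gene, for fascin, which bundles actin into the spikes of motile cells, had the smallest p of all features. It stood at 9.72, 16.3, 16.8 and 13.5 CPM in lymph node clones 1 to 4 and at 39.3 and 36.3 CPM in the spleen clones, a log2 fold change of -1.42 ± 0.20 (unadjusted p = 0.000182), and lies on chromosome 3 at 4134173 to 4143275. The groups were far apart, since the highest lymph node clone reached 16.8 CPM and the lower spleen clone 36.3 CPM. DSTN, destrin, which takes actin filaments apart, stood at 0.543, 0.459, 0.890 and 1.48 CPM against 5.25 and 3.92 CPM, a log2 fold change of -2.40 ± 0.46 (unadjusted p = 0.000885). The file gives this feature by an Ensembl ID only, on chromosome 17 at 25998830 to 26050354, and a gene name table supplied the symbol. SMOC2, a secreted matrix protein on chromosome 1 at 1193163 to 1332739, stood at 1.03, 1.63, 1.70 and 1.52 CPM against 3.84 and 4.19 CPM, a log2 fold change of -1.44 ± 0.26 (unadjusted p = 0.000734).

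MMP11, a matrix metalloproteinase on chromosome 14 at 49907684 to 49917494, varied little within either organ. Its level was 13.8, 15.04, 14.9 and 14.3 CPM against 21.9 and 19.7 CPM, a log2 fold change of -0.52 ± 0.10 (unadjusted p = 0.000893). INSIG1, which holds the sterol regulator SREBP in the endoplasmic reticulum, stood at 61.6, 63.2, 63.2 and 52.2 CPM against 88.5 and 81.7 CPM, a log2 fold change of -0.50 ± 0.10 (unadjusted p = 0.00101). It lies on chromosome 18 at 2885494 to 2898758. MPPED1, on chromosome 5 at 5417939 to 5496494, stood at 1.87, 1.12, 0.930 and 1.10 CPM against 5.43 and 3.83 CPM, a log2 fold change of -1.90 ± 0.33 (unadjusted p = 0.000566). In all 12 genes the groups were fully apart.

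**Figure D2:**
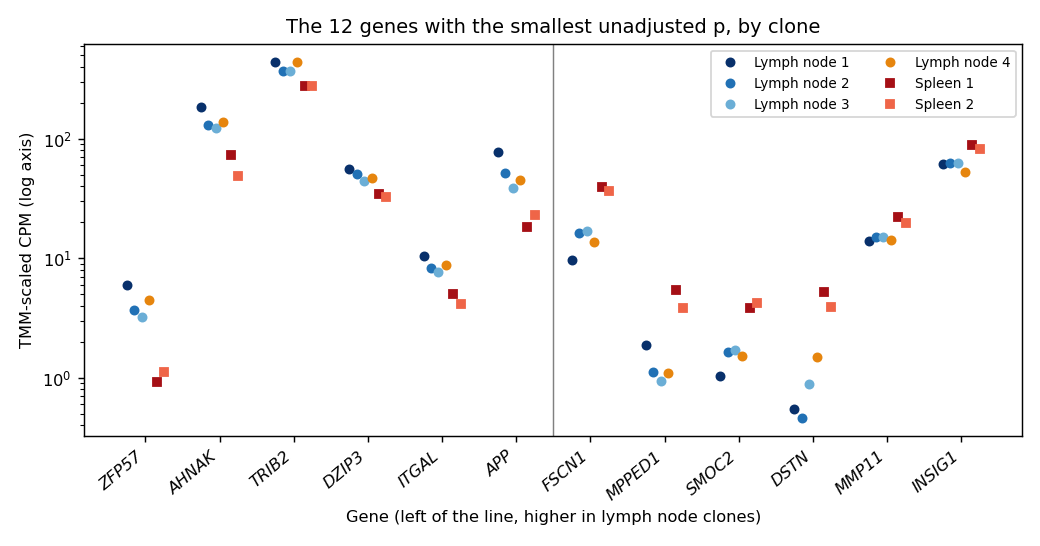
Level of 12 genes in each clone, as TMM-scaled CPM on a log axis, with circles for lymph node clones and squares for spleen clones. The 6 genes left of the line are higher in every lymph node clone and the 6 right of it higher in both spleen clones, as for FSCN1 at 9.72 to 16.8 CPM against 36.3 and 39.3 CPM.

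Genes of chromosome 13 leaned towards the lymph node clones and those of chromosome 18 towards the spleen clones. Positions were found for 10834 tested features on 19 chromosomes. On chromosome 13, 692 of 733 features were higher in the lymph node clones (94.4%), with a median log2 fold change of 0.29. Of these 733, 244 were higher in every lymph node clone than in both spleen clones (33.3%, beside 7.76% of all features), and 159 of the 160 with an unadjusted p under 0.05 were higher. On chromosome 18 the shift ran the other way: 19 of 226 features were higher in the lymph node clones (8.41%), with a median log2 fold change of -0.22. There 54 were lower in every lymph node clone (23.9%, beside 7.66%), and all 24 features with an unadjusted p under 0.05 were lower. On the other 17 chromosomes 41.4 to 54.9% of features were higher, and medians ran from -0.021 to 0.013. The 959 features on chromosomes 13 and 18 held 184 of the 605 with an unadjusted p under 0.05 and 304 of the 1940 without overlap.

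The shift was graded among the lymph node clones and was not shared by all of them. Over the 615 features of chromosome 13 with a mean of 5 CPM or more, the median level relative to the mean of the spleen clones was 1.45-fold in lymph node clone 1, 1.22-fold in clone 2, 1.18-fold in clone 3 and 1.01-fold in clone 4. The spleen clones themselves stood at 1.005 and 0.995. On chromosome 18, over 189 features, the same clones stood at 0.698, 0.850, 0.883 and 0.998, with the spleen clones at 0.989 and 1.01. The order of the clones was the same on both chromosomes, with lymph node clone 4 level with the spleen clones. On all other chromosomes the median of each clone lay between -0.036 and 0.035 on the log2 scale.

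**Figure D3:**
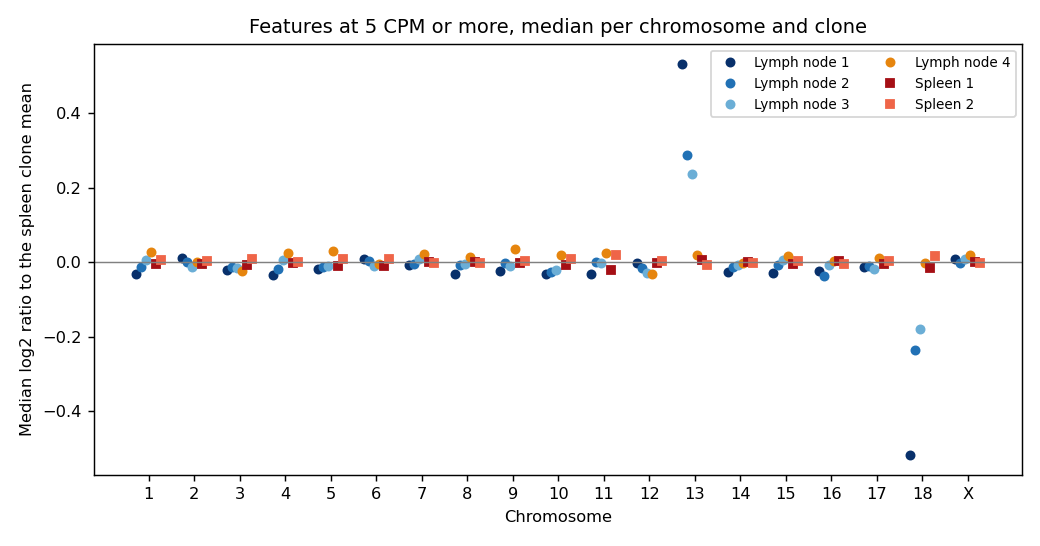
Median log2 ratio of each clone to the mean of the spleen clones, per chromosome, over features with a mean of 5 CPM or more. Lymph node clone 1 stands at 0.53 on chromosome 13 and -0.52 on chromosome 18, lymph node clones 2 and 3 lie between it and 0, and lymph node clone 4 lies at 0.021 and -0.0022.

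The shift ran along the whole of both chromosomes. Cut into 20-megabase bins, all 11 bins of chromosome 13 had a median log2 fold change between 0.24 and 0.32, and the 3 bins of chromosome 18 stood at -0.22 each. Nor was the shift a matter of a few strongly expressed genes. Split into 3 parts by mean level, the chromosome 13 features had medians of 0.31, 0.29 and 0.28 from low to high, and those of chromosome 18 had -0.22, -0.24 and -0.21. In lymph node clone 1, 97.2% of chromosome 13 features stood above both spleen clones, in clone 2 92.0%, in clone 3 87.5% and in clone 4 42.6%. On chromosome 18, 94.7%, 83.1%, 78.3% and 35.4% stood below both. Without lymph node clone 1 the median log2 fold change was 0.18 on chromosome 13 and -0.14 on chromosome 18, and leaving out any other clone kept it at 0.28 to 0.36 and -0.31 to -0.21. RNA alone was measured, and what lies behind the shift was not tested. With both chromosomes left out, 0 of 11621 features passed edgeR's test and 462 had an unadjusted p under 0.05, and the mean difference between clones of different organs was 0.300 in place of 0.311.

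Several genes of lymphoma and immunity lie on these chromosomes. CD47, the surface signal that keeps macrophages from engulfing a cell, stood at 422, 361, 362 and 321 CPM in lymph node clones 1 to 4 against 311 and 267 CPM in the spleen clones (chromosome 13, log2 fold change 0.34 ± 0.12). GNAI2, the G protein subunit that carries chemokine receptor signals, stood at 705, 518, 486 and 360 CPM against 358 and 370 CPM, with lymph node clone 4 between the spleen clones. IL10RB and IFNAR1, receptor chains for interleukin 10 and type I interferon, had log2 fold changes of 0.48 ± 0.18 and 0.35 ± 0.12, without overlap between the groups. SETD2, a histone methyltransferase, had one of 0.22 ± 0.08 and PIK3CA, a lipid kinase, one of 0.24 ± 0.12. On chromosome 18, HOXA4, a homeobox gene, stood at 2.23, 4.69, 3.72 and 4.97 CPM against 6.65 and 6.42 CPM, a log2 fold change of -0.73 ± 0.31. Its order of clones was not that of the chromosome, since lymph node clone 2 stood above clone 3, and clone 4 lay below both spleen clones. The edgeR adjusted p of each of these was above 0.05.

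Genes were then read by function, in 31 lists with 556 tested members. None of the 556 passed edgeR's test. An unadjusted p under 0.05 was reached by 40 members (7.19%, beside 4.81% of all features), 39 were higher in every lymph node clone (7.01%, beside 7.76%) and 38 in both spleen clones (6.83%, beside 7.66%). The shares without overlap were thus near those of all features, and the share at an unadjusted p under 0.05 somewhat above it.

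Genes of traffic and adhesion govern which organ a lymphocyte enters and leaves. Of 31 tested, 0 passed, the median log2 fold change was 0.16, beside 0.0034 over all features. Of these 31, 5 were higher in every lymph node clone (beside 7.76% of all features) and 3, ACKR3, ITGB1 and CD9, in both spleen clones (beside 7.66%). The median was 0.078 without lymph node clone 1, 0.085 without spleen clone 2 and 0.096 with limma-voom. The 5 higher in every lymph node clone were ITGAL, CCR6, S1PR1, ITGA5 and CD44. ITGB2, the beta chain that pairs with ITGAL in LFA-1, overlapped, at 2.11, 1.73, 1.21 and 0.645 CPM in lymph node clones 1 to 4 against 1.40 and 1.38 CPM (0.012 ± 0.46). The LFA-1 ligands ICAM1 (-0.16 ± 0.22) and ICAM2 (-0.0095 ± 0.11) overlapped as well. CCR6, a chemokine receptor of B cells, stood at 27.7, 26.9, 27.3 and 28.2 CPM in lymph node clones 1 to 4 against 23.2 and 23.3 CPM, a log2 fold change of 0.24 ± 0.07. The difference is small, but within each organ the clones hardly varied. S1PR1, the receptor by which lymphocytes leave lymph nodes, stood at 2.23, 1.38, 1.17 and 1.33 CPM against 0.887 and 0.579 CPM (1.03 ± 0.38). ACKR3, a scavenger receptor for the chemokine CXCL12, was lower, at 1.63, 0.612, 0.688 and 0.683 CPM against 2.18 and 2.00 CPM (-1.24 ± 0.44).

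The receptors best known for placing B cells in lymphoid tissue overlapped between the organs. CXCR4 stood at 216, 250, 293 and 499 CPM against 293 and 263 CPM. CXCR5, which draws B cells into follicles, stood at 38.8, 33.7, 40.3 and 57.9 CPM against 48.3 and 27.5 CPM, and CCR7, which draws lymphocytes into the T zone of lymph nodes, at 18.1, 18.96, 16.5 and 13.7 CPM against 13.7 and 15.8 CPM. Integrin chain ITGA4 stood at 67.9 to 76.5 CPM in the lymph node clones and at 70.2 and 76.2 CPM in the spleen clones, a log2 fold change of -0.04 ± 0.07. Its 95% interval, like those of most features, lay within a 2-fold change. Among matrix proteases and invasion genes, 24 were tested with a median of -0.054, and 0 passed. MMP2 and TIMP2 were higher in both spleen clones and ADAMTS1 and PLAUR in every lymph node clone. The share without overlap was 16.7%, beside 15.4% of all features.

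Genes induced by amino acid shortage differed between clones more than between organs. Their regulator ATF4 is made when amino acids run low or proteins misfold, and switches on serine synthesis, amino acid transporters and asparagine synthesis. Of 30 tested, 0 passed, but 28 had a log2 fold change above 0, with a median of 0.37. PSAT1, an enzyme of serine synthesis, stood at 233, 434, 458 and 111 CPM in lymph node clones 1 to 4 and at 101 and 155 CPM in the spleen clones. Lymph node clones 2 and 3 were high, clone 1 between, and clone 4 lay among the spleen clones, so the groups overlapped.

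Other members showed that order too. CHAC1, which breaks down glutathione, stood at 23.0, 58.7, 50.8 and 11.6 CPM against 7.87 and 15.8 CPM (log2 fold change 1.61 ± 0.64). ATF5, a transcription factor under ATF4, stood at 54.5, 98.7, 167 and 29.8 CPM against 26.2 and 48.1 CPM. ASNS, asparagine synthetase, stood at 260, 387, 351 and 177 CPM against 154 and 211 CPM. TRIB3, a pseudokinase that dampens the response, stood at 10.3, 25.4, 29.2 and 6.34 CPM against 4.51 and 9.22 CPM. Over the whole list the median log2 ratio to the mean of the spleen clones was 0.30, 0.66, 0.62 and -0.085 in lymph node clones 1 to 4, and -0.11 and 0.11 in the spleen clones. VLDLR, a lipoprotein receptor, was the 1 member without overlap, at 51.8 to 65.0 CPM against 48.3 and 51.7 CPM. That is 3.33% of the list, beside 15.4% of all features without overlap in either direction. Members tied to misfolded protein rather than to amino acids differed little: HSPA5, a chaperone of the endoplasmic reticulum, stood at 460 to 521 CPM against 478 and 559 CPM, and XBP1 at 73.5 to 86.0 CPM against 72.9 and 84.3 CPM.

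**Figure D4:**
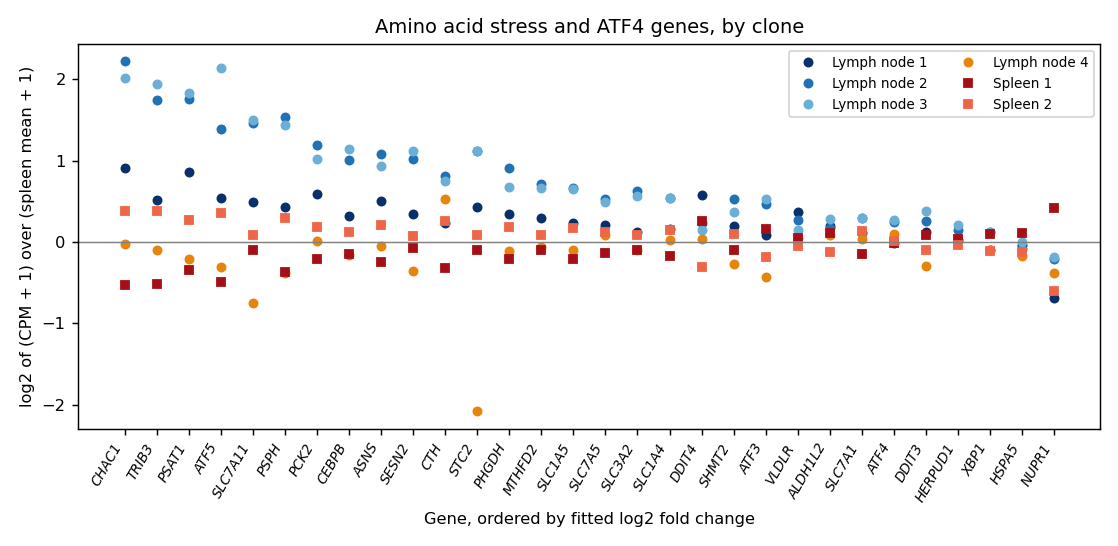
Log2 ratio of each clone to the mean of the spleen clones, after adding 1 CPM, for 30 amino acid stress and ATF4 genes. For CHAC1, TRIB3, PSAT1 and ATF5 lymph node clones 2 and 3 stand highest, lymph node clone 1 lower, and lymph node clone 4 lies between the spleen clones.

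B cell identity genes leaned towards the lymph node clones, a tilt that rested on spleen clone 2. Of 23 B cell identity genes tested, 21 had a log2 fold change above 0, with a median of 0.19, and 3 were higher in every lymph node clone (beside 7.76% of all features) and 0 in both spleen clones. Without spleen clone 2 the median was -0.0061, and without spleen clone 1 it was 0.32. BLK, a kinase of the B cell receptor pathway, stood at 15.7, 12.2, 11.2 and 14.5 CPM against 8.72 and 7.35 CPM (0.74 ± 0.17). BANK1, a scaffold of that pathway, stood at 19.99, 20.2, 20.6 and 15.4 CPM against 14.4 and 14.8 CPM (0.38 ± 0.14), and the other member was TNFRSF13B, a receptor for BAFF and APRIL (0.24 ± 0.13). None passed edgeR's test. Several identity genes were lower in lymph node clone 4 and spleen clone 2 than in the other clones, as CD72 was, at 177, 115, 133 and 43.7 CPM against 128 and 71.4 CPM, and CIITA, the master regulator of MHC class II, at 266, 237, 261 and 136 CPM against 267 and 166 CPM.

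Genes of early B cell stages had a median of 0.025 over 17 tested. FLT3, a receptor of progenitors, was higher in both spleen clones, at 107 and 112 CPM against 73.1 to 99.5 CPM, and TCF3 was higher in every lymph node clone. The spread lay within the lymph node group. RAG1, part of the V(D)J recombinase, stood at 1.81, 1.43, 1.29 and 31.8 CPM in lymph node clones 1 to 4 and at 1.55 and 4.5 CPM in the spleen clones, and its partner RAG2 at 38.1, 51.0, 56.7 and 339 CPM against 60.9 and 103 CPM. DNTT, which adds untemplated bases to antigen receptor genes, was present at 8.15, 10.9, 10.9 and 26.0 CPM against 10.9 and 11.7 CPM. Lymph node clone 4 was the highest of the 6 for each of these, and spleen clone 2 came next. The germinal centre list had a median of 0.18 over 14 tested, with LMO2 and MYBL1 higher in both spleen clones. By clone, its median log2 ratio to the spleen mean was 0.34, 0.10, 0.12 and 0.016 in lymph node clones 1 to 4. The spleen clones stood at 0.13 and -0.13, so the organs overlapped. The plasma cell list had a median log2 fold change of 0.0063 over 17, with SDC1 and SEC11C higher in both spleen clones. Their shares without overlap were 14.3% and 11.8%, beside 15.4% of all features.

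The medians of the growth lists ran from -0.050 to 0.055, beside 0.0034 over all features. Of 31 proliferation genes 0 passed and the median was 0.012. None was without overlap (beside 15.4% of all features) or had an unadjusted p under 0.05 in edgeR's test (beside 4.81%). The MYC and ribosome biogenesis list had a median of 0.0075 over 25, the apoptosis list one of -0.0032 over 19, the glycolysis list one of 0.0072 over 30 and the telomere list one of -0.050 over 10. Among 20 cell cycle inhibitors and p53 genes, median 0.010, CDKN2D, an inhibitor of CDK4 and CDK6, stood at 36.0, 25.8, 25.5 and 32.9 CPM against 23.4 and 21.0 CPM (0.43 ± 0.16). Of 31 lymphoma oncogenes and suppressors, median 0.055, 6 were higher in every lymph node clone and 2 in both spleen clones (beside 7.76% and 7.66% of all features). MYCN, a relative of MYC, stood at 7.97, 5.45, 4.73 and 5.58 CPM against 3.07 and 3.56 CPM (0.84 ± 0.25), while MYC itself overlapped, at 224 to 293 CPM against 224 and 264 CPM. ID3, which blocks the B cell factor TCF3, stood at 29.2, 21.8, 17.6 and 13.7 CPM against 13.2 and 10.6 CPM (0.78 ± 0.29). ATM, a kinase of the response to DNA breaks, was lower, at 65.3 to 74.8 CPM against 89.2 and 76.2 CPM (-0.25 ± 0.09).

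The chromatin and homeobox lists had medians slightly below 0, without the organs standing apart clone by clone. The HOX list had a median of -0.11 over 22 tested, of which 7 lie on chromosome 18. Its median log2 ratio to the spleen mean was -0.089, -0.047, -0.14 and -0.043 in lymph node clones 1 to 4. In spleen clones 1 and 2 it was -0.055 and 0.055. BMI1, a Polycomb protein of stem and leukaemic cells on chromosome 10, stood at 711, 848, 908 and 815 CPM against 1277 and 1111 CPM, a log2 fold change of -0.54 ± 0.11, and passed with DESeq2 (adjusted p = 0.00750) but not with edgeR. Chromatin regulators had a median of -0.034 over 26 tested. By clone they stood at -0.064, -0.047, -0.094 and 0.063 in lymph node clones 1 to 4, and at -0.0059 and 0.0059 in the spleen clones. ASXL1, a Polycomb-related gene, stood at 170 to 180 CPM against 195 and 204 CPM (-0.18 ± 0.06).

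Metabolic and mitochondrial lists had small medians. Of 27 cholesterol and fatty acid synthesis genes, 3 had a log2 fold change above 0 and the median was -0.071, with INSIG1, MVD and SC5D higher in both spleen clones. SQLE, an enzyme of cholesterol synthesis, stood at 143 to 173 CPM against 163 CPM in both spleen clones. Of 13 mitochondrially encoded genes, 2 were above 0 and the median was -0.078. COX1, a subunit of cytochrome c oxidase, stood at 18574, 22558, 23068 and 25569 CPM against 27031 and 26836 CPM (-0.26 ± 0.12), the same order of clones as in the share of mitochondrial counts. That share is made of the counts of these same 13 genes, COX1 among them, so the list and the share are not separate results.

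Immune lists had medians from 0.00043 to 0.15, beside 0.0034 over all features. They were 0.019 over 12 MHC class I genes, 0.024 over 12 MHC class II genes, 0.037 over 27 interferon response genes, 0.00043 over 22 NF-kB genes and 0.12 over 26 immediate-early and stress genes. By clone, the immediate-early and stress list had a median log2 ratio to the spleen mean of 0.17, 0.13, 0.14 and -0.17 in lymph node clones 1 to 4. The spleen clones stood at 0.13 and -0.13, so the organs overlapped. MHC genes belong to a family of near-identical sequences, so reads may be split among its members. Cytokines and receptors had a median of 0.081 over 27, and 3 of them, IL2RB, IL10RB and IFNAR1, were higher in every lymph node clone and 2, IL6ST and LIF, in both spleen clones (beside 7.76% and 7.66% of all features). IL2RB, a chain of the interleukin 2 receptor, stood at 1.63, 1.73, 1.74 and 0.987 CPM against 0.776 and 0.891 CPM (0.86 ± 0.34). Costimulation and checkpoint genes had a median of 0.15 over 17, 5 of them on chromosome 13. By clone, their median log2 ratio to the spleen mean was 0.43, 0.075, 0.20 and -0.061 in lymph node clones 1 to 4. The spleen clones stood at 0.20 and -0.20, so the organs overlapped. CD274 and LAG3 were higher in both spleen clones, at under 1 CPM in every clone.

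The summed levels of markers of other cell types overlapped between the organs, list by list. In bulk RNA, fewer cells of a type and less RNA per cell cannot be told apart. T cell markers, 11 of 23 tested, summed to 284 to 362 CPM in the lymph node clones and 291 to 292 CPM in the spleen clones, with CD5 (0.30 ± 0.08) and CD3E (0.74 ± 0.45, at 0.324 to 0.612 against 0.259 and 0.312 CPM) higher in every lymph node clone and LAT higher in both spleen clones (-0.35 ± 0.14). NK and cytotoxic markers, 1 of 14 tested, summed to 19.5 to 30.2 and 19.8 to 27.9 CPM, with PRF1, KLRD1 and NCR1 at 0 in all 6 and NKG7 at 18.7 to 28.9 CPM. Myeloid markers, 8 of 22 tested, summed to 93.0 to 138 and 90.9 to 113 CPM, with CD163, S100A12, MARCO and VSIG4 at 0 and ITGAM at 34.6 to 71.5 CPM. Erythroid and platelet markers, 2 of 15 tested, summed to 127 to 135 CPM and to 131 CPM in both spleen clones, with HBB, HBM, ALAS2 and AHSP at 0 and ITGA2B at 123 to 133 CPM. Stroma and endothelium markers, 8 of 24 tested, summed to 155 to 258 and 172 to 193 CPM, with 9 at 0, among them COL3A1, DCN, CDH5 and CCL21, the chemokine of lymph node stroma, and VIM at 121 to 192 CPM. Of 12 Y-linked genes and XIST, 4 were in the file and 0 were tested.

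The genes that varied most within an organ set single clones apart. By the range of log2(CPM + 1) among the lymph node clones, the first 5 were HNRNPLL, CADM1, SATB1, TRIM44 and ZNF773, the last named by the gene name table, and lymph node clone 4 was the odd clone for each. HNRNPLL, a splicing regulator of lymphocytes, stood at 2.42, 1.17, 1.54 and 69.9 CPM in lymph node clones 1 to 4 and at 0.0739 and 10.7 CPM in the spleen clones. SATB1, a chromatin organiser of lymphocytes, went the other way, at 41.8, 38.5, 38.2 and 0.797 CPM against 42.4 and 36.2 CPM. By the difference between the spleen clones, the first 5 were HNRNPLL, CADM1, SEPT10, SLC6A4 and TRIM44. SLC6A4, the serotonin transporter, stood at 50.4, 45.5, 43.9 and 403 CPM against 16.1 and 101 CPM. SEPT10, a septin, stood at 1.03, 9.68, 10.8 and 0 CPM against 1.26 and 12.8 CPM, splitting both organs.

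Of the 5 genes that divided the spleen clones most, all but SEPT10 were highest in lymph node clone 4, and the features of that clone were read in the spleen clones. This reading was chosen after the values were seen. HNRNPLL, CADM1 and TRIM44 are themselves among the features counted below, so their part of the counts between the spleen clones was known beforehand. There were 16 features at 5 CPM or more in lymph node clone 4 and at least 8-fold above each other lymph node clone. Spleen clone 2 exceeded spleen clone 1 for 16 of 16, and it exceeded lymph node clones 1 to 3 for 16 of 16. Its level was 8.94 to 48.5% of that in lymph node clone 4, with a median of 19.3% (interquartile range 14.9 to 25.1%). Spleen clone 1 had a median of 0.676% and exceeded all of lymph node clones 1 to 3 for 1 of 16.

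The features came from several chromosomes and included RAG1. CADM1, an adhesion molecule, stood at 1.51, 0.255, 0.930 and 30.7 CPM in lymph node clones 1 to 4 against 0.0739 and 6.33 CPM. TRIM44, a ubiquitin pathway protein, stood at 1.69, 0.765, 0.890 and 35.5 CPM against 0.739 and 8.42 CPM. AKAP12, a scaffold for protein kinase A, stood at 5.86, 8.002, 7.16 and 67.7 CPM against 5.91 and 16.2 CPM. With a 4-fold rule, which takes in the same features and more, there were 28 features. Spleen clone 2 exceeded spleen clone 1 for 28 of 28, and its median was 26.2%. The 17 features at least 8-fold lower in lymph node clone 4 gave no such split: spleen clone 2 was the lower spleen clone for 12 and spleen clone 1 for 5, and spleen clone 2 stood at a median of 1202% of lymph node clone 4 and spleen clone 1 at 1304%. What places spleen clone 2 between was not tested.

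**Figure D5:**
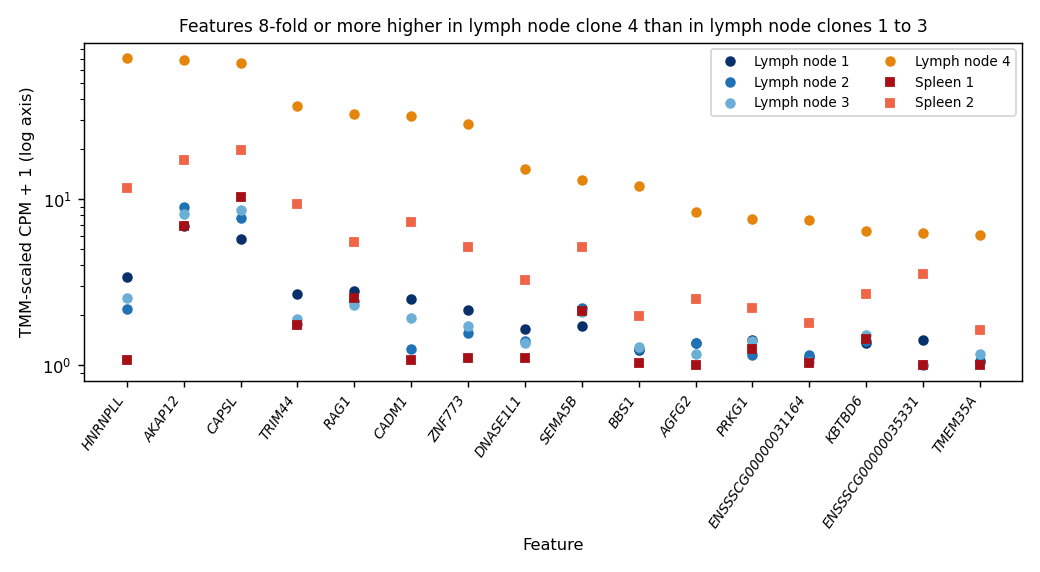
Level of the 16 features that are at least 8-fold higher in lymph node clone 4 than in each other lymph node clone, as TMM-scaled CPM + 1 on a log axis. Spleen clone 2 lies below lymph node clone 4 and above the remaining clones for 16 of 16.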

How the data were processed

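RNA-seq was done on 8 libraries, of which the 6 lymphoma clones were used; samples were grouped by the organ given in the labels. Per the file headers, the authors deposited a read count per feature for each library in both tables, and the 7 libraries in both had identical counts, so the counts of the first table were used as deposited. Trimmomatic, Bowtie2 and edgeR are named, with no version, in the submitters' processing notes, and reads were aligned to Sscrofa11.1, per the series' design text. How reads were counted, against which annotation and on which strand is not given in the sources used, so overlapping genes, and near-identical copies such as MHC and ribosomal protein genes, may share reads. The second table's count columns, classed as other because the authors end them with total lines that carry no feature ID, served only for this comparison of the tables.

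Counts were tested with edgeR 4.0.16 in R 4.3.3 (TMM, filterByExpr by organ, quasi-likelihood F-test, two-sided, only the 6 clones, no covariate), adjusted by Benjamini-Hochberg over all 12580 features at 0.05. Errors of log2 fold changes are Wald SE from that fit. The procedure was tested on simulated data. The upper limit of a count of 0 is 3 counts, or 0.110 to 0.183 CPM by library, which covers counting error only. Of 6841 features listed under an Ensembl ID, a gene name table named 877. Positions are RefSeq's for Sscrofa11.1. Shares of counts were compared by exact permutation.

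Named genes are the 6 with the smallest unadjusted p in each direction, since fewer than 6 passed, the 5 with the widest range within each organ, the label markers, and list members reaching an unadjusted p under 0.05 or lacking overlap. Further list members, the genes of the chromosome account and the features of lymph node clone 4 were chosen after their values were seen, and a few genes are not reported here. The comparison and the gene lists were chosen with earlier results of these data known, so no pattern here is independent support for them. Alternatives were other scalings and filters, DESeq2 1.42.0, limma-voom (limma 3.58.1), robust dispersions, a replicate block and leaving out each clone. Added after seeing the data were leaving out chromosomes 13 and 18, leaving out each clone from the chromosome medians and the likeness between clones, a 5 CPM minimum and other folds for the features of lymph node clone 4.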

Additional observations from a re-analysis of the deposited data

Results flagged for a closer look

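Among the 4 lymph node clones, 12 of 70 measures had 1 clone so far from the other 3 that its gap, as a share of the group's range, passed Dixon's 95% critical value. Chance alone gives such a gap in about 1 in 20 groups, and many of the genes were looked at because they vary.

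Lymph node clone 4 was the clone apart in 10 of the 12. It was high for HNRNPLL (69.9 CPM), CADM1 (30.7 CPM), TRIM44 (35.5 CPM), ZNF773 (27.3 CPM, against 0.561 to 1.15 CPM in the others), SLC6A4 (403 CPM) and ADAMTS1 (12.9 CPM, against 5.83 to 6.58 CPM). ADAMTS1 is a secreted protease on chromosome 13, where lymph node clone 4 as a whole stood level with the spleen clones. It was low for SATB1 (0.797 CPM), BANK1 (15.4 CPM), INSIG1 (52.2 CPM) and IL2RB (0.987 CPM). For BANK1 and IL2RB that put it next to the spleen clones, and for INSIG1 farther from them than the other lymph node clones.

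Lymph node clone 1 was apart for ACKR3 (1.63 CPM), nearer to the spleen clones than the others, and for IFI6, an interferon-induced gene (12.02 CPM, against 9.75 to 10.1 CPM).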

How the results depend on the processing

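The count of features passing stayed at 0 under the other scalings, filters, limma-voom and robust dispersions and without chromosomes 13 and 18, and was 20 with DESeq2, among them all 12 genes named by smallest p. With 1 clone left out it was 0 to 1, the 1 without lymph node clone 4. The count at an unadjusted p under 0.05 ran from 250 (without spleen clone 2) to 1843 (without lymph node clone 4). Features without overlap numbered 1214 to 2384 higher in lymph node and 1228 to 2356 higher in spleen clones, more than with all 6 by construction, since fewer clones must separate. Clone numbers are not known to pair the samples. Deviations from the group means correlated at 0.23 for the clones numbered 1 and at -0.051 for those numbered 2. With 2 spleen clones their deviations mirror each other, so these values cannot settle whether clones pair. A replicate block passed 570 features, with 2175 at an unadjusted p under 0.05, but lymph node clones 3 and 4 have no partner and drop out of the contrast, which leaves 1 residual degree of freedom. With a 4-fold rule the median level of spleen clone 2 was 26.2% of lymph node clone 4. Of the named genes' values under alternatives, 702 kept their side of the threshold and 37 passed only with DESeq2 or the block. Signs could turn where 1 clone carried a difference. Without lymph node clone 4, HNRNPLL stood at 1.17 to 2.42 CPM in lymph node clones against a spleen mean of 5.41 CPM. Its log2 fold change over all 6 clones was 1.84. Of the list medians 429 moved by less than the spread between clones and 21 by more, 16 of these without 1 clone. The cause was not tested. With 2 spleen clones, a feature at the median error needed a difference of about 0.29 on the log2 scale for its own interval to clear 0.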

Other observations

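Several genes beyond those named by smallest p passed with DESeq2 but not with edgeR, and they were chosen for that reason after their values were seen. SLIT1, a guidance protein whose relatives also repel leukocytes, stood at 1.15, 4.89, 3.20 and 2.01 CPM in lymph node clones 1 to 4 and at 13.8 and 16.6 CPM in the spleen clones (edgeR log2 fold change -2.43 ± 0.47, DESeq2 adjusted p = 0.00127). ARHGAP6, which switches off the GTPase RhoA, stood at 5.74, 5.91, 5.14 and 7.32 CPM against 1.03 and 2.76 CPM (1.68 ± 0.37). TFDP2, the partner of E2F factors, stood at 153, 145, 137 and 142 CPM against 115 and 118 CPM on chromosome 13, and the difference was held by lymph node clone 4 as well. Others were BMI1 and NPTXR, higher in the spleen clones, and TNRC18 and SPIN3, higher in the lymph node clones.

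Neighbouring receptor genes on chromosome 2 differed the same way. CSF1R, the receptor for a macrophage growth factor, stood at 30.9, 41.2, 37.2 and 40.1 CPM in lymph node clones 1 to 4 and at 51.8 and 45.8 CPM in the spleen clones (-0.38 ± 0.12). PDGFRB, a receptor of stromal cells, starts at 151155753, beside CSF1R at 151102138, and stood at 3.56, 7.34, 7.24 and 3.98 CPM against 10.7 and 9.45 CPM (-0.86 ± 0.33). Both were higher in both spleen clones and neither passed edgeR's test. Among the other markers of their lists, the difference ran the opposite way for CSF3R, a myeloid receptor, at 1.69, 0.917, 0.688 and 3.91 CPM against 0.480 and 0.535 CPM (1.83 ± 0.76), and for TEK, an endothelial receptor, at 9.78, 4.54, 6.51 and 6.15 CPM against 3.73 and 1.16 CPM (1.45 ± 0.48). Of the 22 myeloid markers 4 were at 0 in all 6 clones, and of the 24 stroma and endothelium markers 9 were, while ITGAM stood at 34.6 to 71.5 CPM and VIM at 121 to 192 CPM. The summed levels of both lists overlapped between the organs, at 93.0 to 138 against 90.9 to 113 CPM and at 155 to 258 against 172 to 193 CPM. Each library is 1 cultured clone taken through limiting dilution, and whether any other cell type contributed to the difference was not tested.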
